A study of Mus musculus with 10 samples.

Results

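The NF-kappaB transcription factors, their inhibitors and *Tnf* were examined in microglia sorted from the hippocampus of aged 3xTg mice treated with glatiramer acetate (GA) or phosphate-buffered saline (PBS). The 10 genes were taken by symbol from a table of 55453 genes. They were the factors *Nfkb1*, *Nfkb2*, *Rel*, *Rela* and *Relb*, the IkappaB genes *Nfkbia*, *Nfkbiz* and *Nfkbie*, the deubiquitinase *Tnfaip3*, and the cytokine *Tnf*. All 10 were found, and all 10 passed the filter on low counts.

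The mice of both groups were female 3xTg animals over 15 months old. Their transgenes include human APP with the Swedish mutation and MAPT with P301L, expressed from the neuronal Thy1.2 promoter by the methods, a promoter of neurons and not of microglia. The methods describe the animals as retired breeders. The GA group received injections of 0.1 mg of GA for about 8 weeks, weekly by the labels and with 2 injections in the first week by the methods, and the control group received PBS alone. GA is a random polymer of 4 amino acids used in multiple sclerosis, and the question was whether it changes the state of microglia around amyloid and tau pathology. Myelin was removed on a 40% percoll gradient, and CD45int CD11b+ cells were sorted. Each group holds 5 libraries. The PBS libraries are titled 388_1 to 388_5, and the GA libraries are titled 394_1, 394_2, 400_1, 400_2 and 400_3. The meaning of the prefixes is not stated, and as none holds both treatments, prefix and treatment cannot be told apart. The labels do not say that each library came from a separate animal, so the p-values measure the spread between these libraries.

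NF-kappaB is a family of dimers that wait in the cytoplasm bound to inhibitory IkappaB proteins. Toll-like receptors, interleukin-1 receptors and TNF receptors activate the IKK kinase complex, which marks IkappaB for destruction and frees dimers such as that of the products of *Rela* and *Nfkb1*. The freed dimers switch on cytokine genes, *Tnf* among them, and also genes of their own brakes, such as *Nfkbia* and *Tnfaip3*. A second, noncanonical arm processes the product of *Nfkb2*, which pairs with that of *Relb*. In microglia this system is known for its response to bacterial products, injured cells and amyloid. Since it is switched largely at the protein level, the values below are amounts of RNA and not of active factor.

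Total counts ran from 32332185 to 38764643 per library. The microglial genes *P2ry12*, *Tmem119* and *Cx3cr1* were each between 4927 and 7847 CPM in every library. Markers of other cells were low but uneven: the 8 neutrophil markers summed to 37.9 to 446 CPM with PBS and 10.9 to 169 CPM with GA, and the 6 monocyte markers to 28.5 to 85.5 CPM and 31.0 to 44.1 CPM. The 6 markers of border-associated macrophages summed to 43.3 to 246 CPM with PBS, highest in 388_4, and to 47.3 to 185 CPM with GA. The 6 T and NK cell markers stayed between 0 and 0.794 CPM. No library was a copy of another, as the chi-square per degree of freedom was at least 14.0 over the 45 pairs. PBS libraries 388_4 and 388_5 stood apart over all genes: this value was 46.1 to 55.7 between 388_4 and the other libraries and 32.9 to 53.9 for 388_5, against 14.0 to 30.2 for the 28 pairs without them. They also had the highest mitochondrial shares, 0.180% and 0.175%, where the others had at most 0.152%. Results are therefore also given without both, a fit chosen after the data were seen.

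Several of these genes are themselves known targets of the pathway, so their promoters were searched for the letters of the kappaB consensus, on both strands, in the 250 bases before each annotated start. The RefSeq table of promoters on GRCm38.p6 held 7 of the 10 genes, and had no entry for *Nfkb1*, *Relb* and *Nfkbiz*. A match was found for 5 of the 7, namely *Nfkb2*, *Rel*, *Nfkbia*, *Nfkbie* and *Tnfaip3*. By window, 7 of the 10 windows of these genes held one (*Nfkb2* has 3 annotated starts and *Tnfaip3* has 2), against 7.25% of the 32851 windows of all genes. The matches below are shown because they carry this shared feature. Each line gives up to 10 bases on either side, 5′ to 3′ on the strand of the gene, with the match in capitals. Further matches in the windows of *Nfkb2* and *Tnfaip3*, and those shifted by a base, are not shown.

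Nfkbia, chr12:55492657-55492686, minus strand: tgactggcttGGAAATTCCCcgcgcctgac
Nfkb2, first start, chr19:46304688-46304717, plus strand: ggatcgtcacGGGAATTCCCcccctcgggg
Nfkb2, last start, chr19:46305695-46305724, plus strand: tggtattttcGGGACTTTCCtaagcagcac
Rel, chr11:23771042-23771071, minus strand: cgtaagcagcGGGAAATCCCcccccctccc
Nfkbie, chr17:45555584-45555613, plus strand: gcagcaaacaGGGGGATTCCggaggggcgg
Tnfaip3, chr10:19015411-19015432, minus strand: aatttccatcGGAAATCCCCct

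The match of *Nfkbia* lies 29 to 20 bases before its start, that of *Tnfaip3* 12 to 3 bases before, and that of *Rel* 92 to 83 bases before. The *Nfkbie* match lies 106 to 97 bases before its start. The windows of *Tnf* and *Rela* did not hold these letters, which says nothing of sites elsewhere. A match is a run of letters and not a measured binding site.

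The levels of different genes were compared as RPKM, the reads per kilobase of merged exons scaled to the size of the library, with lengths from GENCODE M21. *Nfkbia*, which encodes the main IkappaB protein, was the most abundant, at 110 ± 47.6 RPKM with PBS and 82.0 ± 10.98 RPKM with GA (SD, n = 5 each). *Rela*, which encodes the transactivating subunit p65, followed at 71.2 ± 9.73 and 68.4 ± 2.60 RPKM, and was below *Nfkbia* in each of the 10 libraries. With these lengths, a wide gap separated both genes from the rest. The lowest *Rela* value was 59.4 RPKM and the highest value of *Tnfaip3* and *Nfkbie* 20.4 RPKM. The gap and the order depend on the lengths, which merge the exons of all annotated transcripts. They were 12061 bases for *Nfkb1* and 7226 for *Tnfaip3*, but 1610 for *Nfkbia* and 3072 for *Rela*. Before division by length, *Nfkb1* and *Nfkbia* averaged 176 and 177 CPM with PBS. Other lengths were not tested. *Tnfaip3*, encoding the deubiquitinase A20, averaged 18.3 RPKM and *Nfkbie*, encoding IkappaB-epsilon, 17.8 RPKM, and as *Tnfaip3* was above in only 7 of the 10 libraries this order is not beyond their spread. *Nfkb1* came next at a mean of 13.9 RPKM. *Relb*, *Rel* and *Nfkb2*, at 10.3, 10.3 and 9.77 RPKM, could not be ordered beyond their spread. *Nfkbiz*, which encodes a nuclear IkappaB protein that acts on a subset of inflammatory genes, averaged 4.73 RPKM and *Tnf* 4.13 RPKM, the former being higher in 8 of the 10 libraries.

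**Figure D1:**
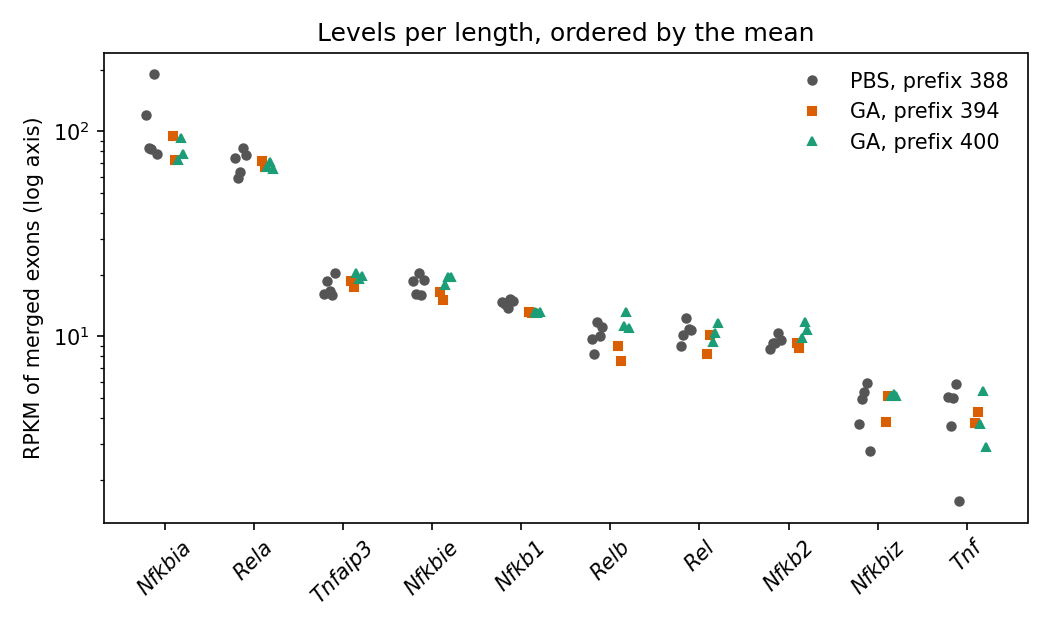
Level of each gene per length in RPKM (log axis) for each of the 10 libraries, with genes ordered by their mean; grey circles are PBS libraries, orange squares and green triangles are GA libraries of prefix 394 and 400. With merged exons as the length, *Nfkbia* and *Rela* sit above 59.4 RPKM in every library, and the remaining genes at or below 20.4 RPKM.

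Comparing GA with PBS, *Nfkb1* was the gene of this family whose values did not overlap between the groups: it was lower in each GA library than in any PBS library, with a GA mean of 0.897 times the PBS mean. The noncanonical partners *Nfkb2* and *Relb*, the inhibitors and *Tnf* had overlapping values in the treatment groups. By the quasi-likelihood test of edgeR with Benjamini-Hochberg adjustment, 0 of the 10 genes passed an adjusted *P* of 0.05 (background 0% of 14481 genes tested), and the same count was found with DESeq2 and limma-voom. An unadjusted *P* under 0.05 was found for 1 of the 10, *Nfkb1*, against 5.75% of all genes. Of the 10 genes, 4 had a higher and 6 a lower fitted value in GA, with a median log2 fold change of -0.04, while the median over all genes tested was 0.00020. RNA from sorted cells is a bulk measure, in which fewer cells that express a gene and less RNA per cell cannot be told apart.

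*Nfkb1*, at chr3:135584655-135691547 on the minus strand of GRCm38, encodes p105, the precursor of the p50 subunit. It read 178, 173, 166, 184 and 180 CPM in PBS libraries 388_1 to 388_5. In GA libraries 394_1, 394_2, 400_1, 400_2 and 400_3 it read 159, 157, 159, 157 and 158 CPM. The lowest PBS library, 388_3, was thus still above the highest GA library, 394_1, and such separation of the groups was seen for 0.891% of the genes tested. The means were 176 ± 6.69 CPM with PBS and 158 ± 0.646 CPM with GA (SD, n = 5 each), a log2 fold change of -0.16 (standard error 0.054, 95% interval -0.27 to -0.042). The unadjusted *P* was 0.0110 and the adjusted *P* 0.847 in edgeR, and *Nfkb1* ranked 161st by p-value among 14481 genes. A two-sided exact permutation test gave *P* = 0.00794, the smallest this design allows, with an adjusted *P* of 0.793 over all genes. DESeq2 gave an unadjusted *P* of 7.9e-04 and an adjusted *P* of 0.215, which was the lowest adjusted *P* over all 20 alternative fits. Its gene model overlaps *Gm43430* on the same strand.

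The spread of *Nfkb1* among GA libraries was 0.409% of its mean, below the 1.32% that counting error alone would give at a mean of 5711 reads. Only 1 of the 14481 genes tested had a smaller standard deviation of log2 CPM within GA. Such a spread is therefore narrower than the precision of these counts, and the spread of the PBS group, 3.79%, is the better guide to the error of this gene. Dropping any 1 library kept the fold change between -0.18 and -0.14 on the log2 scale. The highest *Nfkb1* values were those of 388_4 and 388_5, and without both it was -0.13 (adjusted *P* = 0.690 in edgeR). With the GA libraries of prefix 394 alone it was -0.15 with an unadjusted edgeR *P* of 0.124, and with those of prefix 400 alone -0.15 with 0.0447. Markers of some other cells were also lower with GA by fitted value. All 8 neutrophil markers were, 7 of them at an unadjusted *P* under 0.05 in edgeR (background 3.17% of all genes). Their median log2 fold change was -1.84. The 5 tested monocyte markers were all lower, 3 of them at an unadjusted *P* under 0.05, with a median of -1.94. The 6 markers of border-associated macrophages were all lower, 0 of them at an unadjusted *P* under 0.05, with a median of -0.30. In contrast, the 3 tested oligodendrocyte markers were all higher, with a median of 0.087. The tested astrocyte markers divided into 1 higher and 2 lower, the endothelial markers into 1 and 1, and the 1 tested neuron marker was lower. Without 388_4 and 388_5, 2 of the neutrophil markers and 1 of the monocyte markers had an unadjusted *P* under 0.05, and 5 of the 6 border-associated markers were higher. The neutrophil and monocyte counts were 3 and 2 in a robust fit of all libraries, and 0 and 0 with the title number as a block. They were 1 and 0 with GA prefix 394 only, and 8 and 3 with prefix 400 only. With all libraries, 0 of these markers passed an adjusted *P* of 0.05 in edgeR, and their part in the *Nfkb1* result was not tested.

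**Figure D2:**
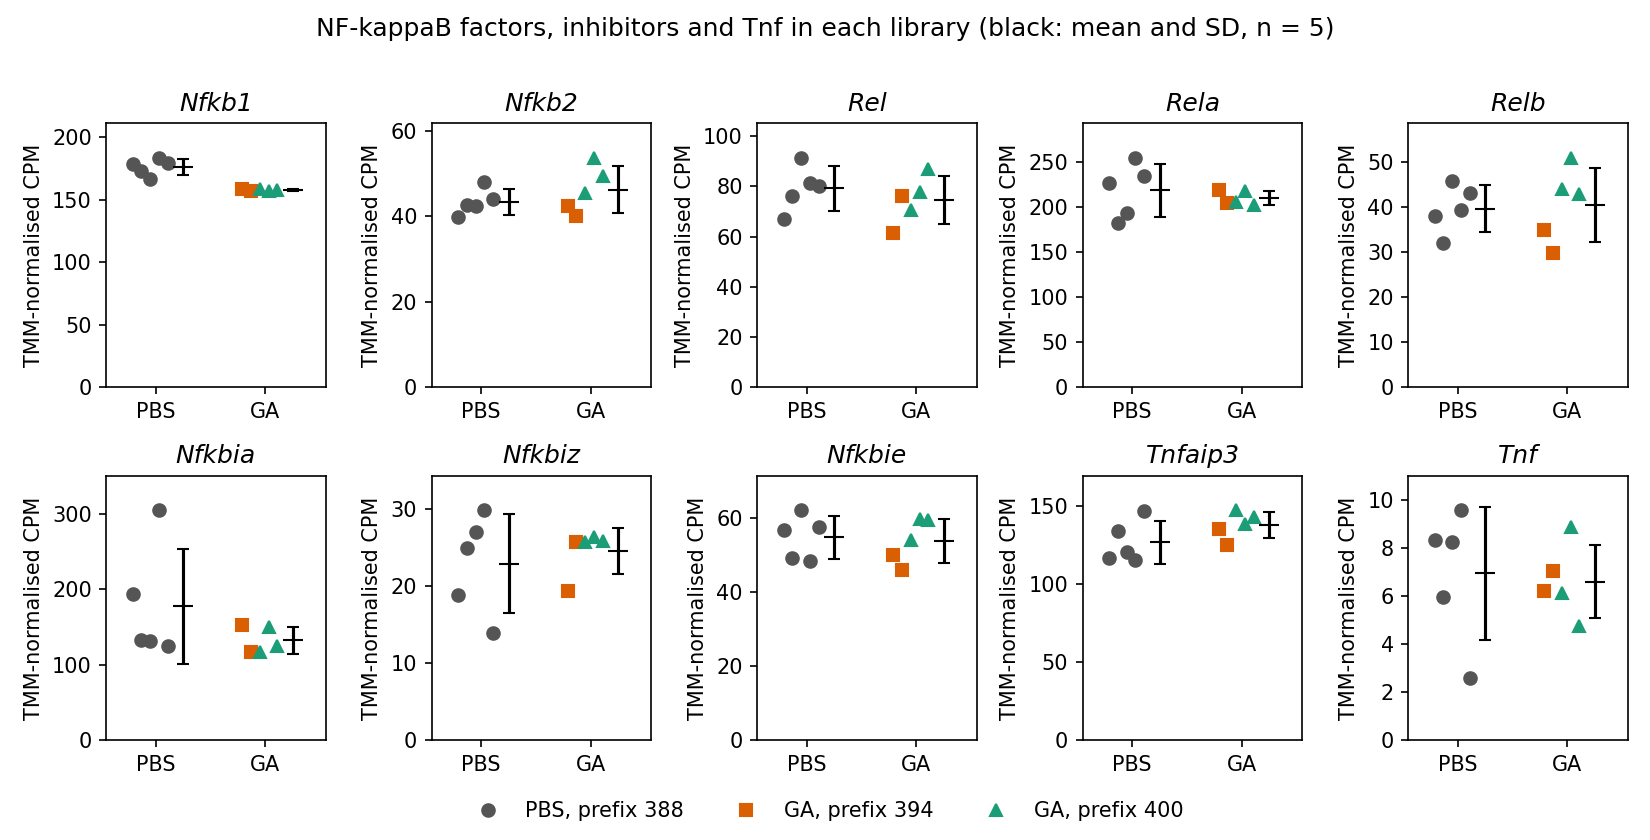
TMM-normalised CPM of each gene in each library by treatment, with the mean and SD of the group in black (n = 5); grey circles are PBS, orange squares GA of prefix 394 and green triangles GA of prefix 400. The GA libraries of *Nfkb1* lie between 157 and 159 CPM, below all PBS libraries, and the groups overlap for the other 9 genes.

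**Figure D3:**
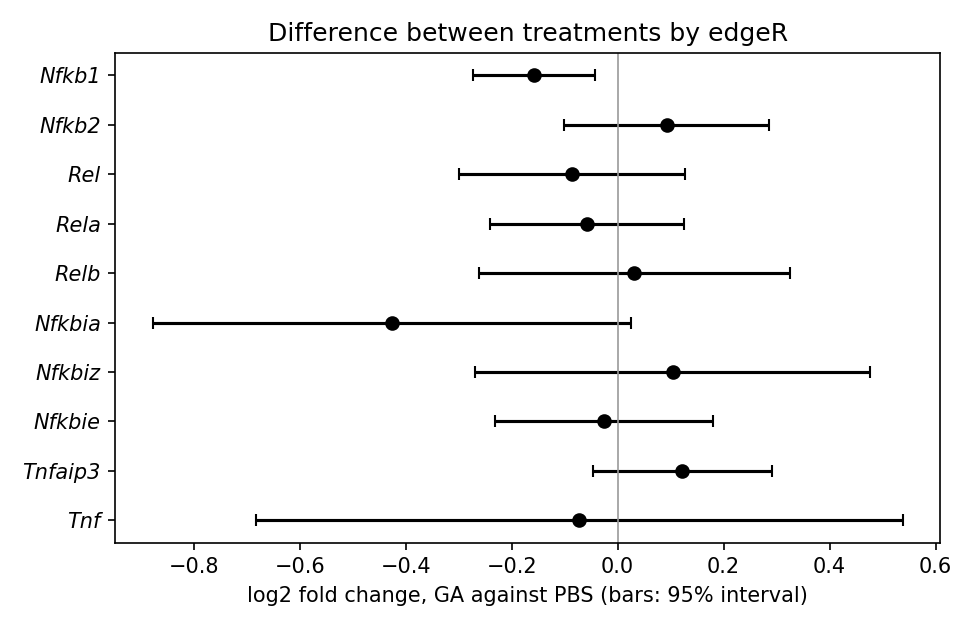
Log2 fold change of GA against PBS from edgeR for each gene, with 95% intervals as bars. The interval of *Nfkb1* runs from -0.27 to -0.042, and those of the other 9 genes include 0.

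*Nfkb2*, the gene of p100 and its processed product p52 (chr19:46304320-46312385, plus strand), read 39.8, 42.6, 42.4, 47.9 and 44.1 CPM in PBS libraries 388_1 to 388_5. In the GA libraries, in the order given above, it read 42.4, 40.1, 45.3, 53.7 and 49.5 CPM. GA libraries 400_2 and 400_3 were above every PBS library, while both of prefix 394 were within the PBS range. The log2 fold change was 0.092 (95% interval -0.10 to 0.29, adjusted *P* = 0.940 in edgeR). It was 0.038 without GA library 400_2, 0.14 without 394_2 and 0.15 without 388_4 and 388_5. The gene overlaps *Psd* on the opposite strand, and whether strand was used in counting is not given in the sources used here.

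Within a library, the level of *Nfkb2* per length relative to that of *Nfkb1* does not depend on how the libraries are scaled. This ratio was 0.587, 0.647, 0.671, 0.685 and 0.646 in PBS libraries 388_1 to 388_5. In GA libraries 394_1, 394_2, 400_1, 400_2 and 400_3 it was 0.703, 0.671, 0.752, 0.898 and 0.822. In 4 of the 5 GA libraries the ratio was thus higher than in any PBS library, and 394_2 lay inside the PBS range. As its denominator is *Nfkb1*, whose groups do not overlap, this ratio is no separate evidence. The other 3 ratios computed overlapped between the groups. *Relb* over *Rela* was 0.144 ± 0.0246 with PBS and 0.152 ± 0.0300 with GA, and *Nfkbia* over *Rela* was 1.52 ± 0.479 and 1.196 ± 0.118. The sum of *Nfkbia*, *Nfkbie* and *Tnfaip3* over that of the 5 factors was 1.24 ± 0.293 and 1.06 ± 0.0773 (SD, n = 5 each). The ratios were chosen after the values were seen and are given without a test.

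*Relb*, the partner of p52 (chr7:19606217-19629438, minus strand), read 37.9, 31.9, 45.7, 39.2 and 43.0 CPM with PBS and 34.9, 29.6, 43.9, 50.9 and 42.8 CPM with GA. Both the lowest and the highest library of the series were GA libraries, 394_2 and 400_2. The log2 fold change of 0.03 (95% interval -0.26 to 0.32, adjusted *P* = 0.984 in edgeR) turned negative without PBS library 388_2 (-0.036) and without GA library 400_2 (-0.060), and was 0.071 without 388_4 and 388_5.

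*Rel*, which encodes c-Rel (chr11:23736847-23770970, minus strand), read 67.0, 76.0, 91.4, 81.3 and 80.0 CPM with PBS and 61.2, 76.0, 70.5, 77.8 and 87.1 CPM with GA. GA library 394_1 was the lowest and PBS library 388_3 the highest, and the groups overlapped. Its log2 fold change was -0.086 (95% interval -0.30 to 0.13), and it ranged from -0.15 without GA library 400_3 to -0.023 without 394_1 when 1 library was left out, and was -0.067 without 388_4 and 388_5. *Rela* (chr19:5637483-5648130, plus strand) read 227, 183, 194, 255 and 235 CPM with PBS and 219, 205, 206, 219 and 202 CPM with GA. All GA values fell inside the PBS range, from 388_2 to 388_4, and the log2 fold change was -0.06 (95% interval -0.24 to 0.13). It turned to 0.0035 without PBS library 388_4, and to 0.063 without 388_4 and 388_5.

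Among the IkappaB genes, *Nfkbia* (chr12:55489410-55492647, minus strand) had the widest difference of means. It read 194, 133, 131, 305 and 124 CPM in PBS libraries 388_1 to 388_5 and 152, 116, 117, 150 and 125 CPM in the GA libraries. PBS libraries 388_4 and 388_1 were above all others, whereas the other 3 PBS libraries lay among the GA values. The means were 177 ± 76.6 CPM and 132 ± 17.7 CPM (SD, n = 5 each), and the log2 fold change was -0.43 (standard error 0.21, 95% interval -0.88 to 0.025). The adjusted *P* was 0.872 in edgeR, and the exact permutation *P* was 0.278. Without 388_4 alone the log2 fold change was -0.14, without 388_4 and 388_5 it was -0.21, and without the other libraries in turn it ran from -0.38 to -0.52. In 388_4 the immediate early genes *Dusp1*, encoding a phosphatase of MAP kinases, and *Fos*, a subunit of AP-1, were also at their highest, at 83.6 and 13.6 CPM, against at most 38.7 and 9.35 CPM in the other libraries. The 16 immediate early and dissociation genes summed to 1067 to 1370 CPM with PBS, highest in 388_4, and to 986 to 1533 CPM with GA, highest in 394_2, where *Nfkbia* had its lowest value. Their part in the *Nfkbia* values was not tested.

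*Nfkbie* (chr17:45555703-45563169, plus strand) read 56.6, 49.1, 62.1, 48.3 and 57.6 CPM with PBS and 50.05, 45.8, 54.1, 59.7 and 59.4 CPM with GA. The groups overlapped, with a log2 fold change of -0.025 (95% interval -0.23 to 0.18), and -0.055 without 388_4 and 388_5. *Nfkbiz* (chr16:55811375-55838899, minus strand) read 18.8, 24.98, 27.0, 29.8 and 13.9 CPM with PBS and 19.3, 25.7, 25.7, 26.4 and 25.8 CPM with GA. All GA values lay within the PBS range, and 4 of the 5 within 25.7 to 26.4 CPM, which left 394_1 apart. The log2 fold change was 0.10 (95% interval -0.27 to 0.48), and 0.062 without 388_4 and 388_5.

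*Tnfaip3* (chr10:19000910-19015657, minus strand) edits ubiquitin chains upstream of IKK and so ends the signal. It read 117, 134, 121, 115 and 147 CPM with PBS and 135, 125, 147, 138 and 143 CPM with GA. PBS library 388_5 lay close to the highest GA library, 400_1, and 4 of the 5 GA libraries lay above the PBS mean. The log2 fold change was 0.12 (standard error 0.078, 95% interval -0.046 to 0.29, adjusted *P* = 0.895 in edgeR). Without 388_5 the exact permutation *P* was 0.0397, against 0.127 with all libraries, and the adjusted edgeR *P* was 0.598. Leaving out 1 library in turn, the exact permutation *P* ran up to 0.254. Without 388_4 and 388_5 the log2 fold change was 0.16 (adjusted *P* = 0.694 in edgeR), and without 388_4 alone it was 0.090. With GA prefix 394 only it was 0.048 (unadjusted *P* = 0.695 in edgeR), and with prefix 400 only 0.18 (unadjusted *P* = 0.0746).

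*Tnf* (chr17:35199381-35202007, minus strand) was the gene with the fewest reads, 91 to 319 per PBS library and 185 to 339 per GA library. It read 8.35, 5.98, 8.25, 9.57 and 2.58 CPM in PBS libraries 388_1 to 388_5 and 6.203, 7.05, 6.12, 8.89 and 4.76 CPM in the GA libraries. PBS library 388_5 was the lowest and 388_4 the highest, so that every GA library lay inside the PBS range. The means of 6.94 ± 2.76 CPM and 6.60 ± 1.52 CPM (SD, n = 5 each) differed by less than this spread (log2 fold change -0.072, standard error 0.28, adjusted *P* = 0.981 in edgeR). Its 95% interval of -0.68 to 0.54 was the widest of the family, the value without 388_4 and 388_5 was -0.19, and a change of *Tnf* within it was not detectable here.

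The spread between libraries differed among the genes. Within groups, the standard deviation of log2 CPM was 0.58 for *Tnf*, 0.41 for *Nfkbia* and 0.34 for *Nfkbiz*, above the median of 0.22 over all genes tested. It was 0.26 for *Relb* and 0.12 to 0.18 for *Nfkb2*, *Rel*, *Rela*, *Nfkbie* and *Tnfaip3*. Counting error gives 6.48% for *Tnf* in PBS, as a lower limit for amplified reads, and the observed spread was 39.8% of the mean. By group, the standard deviation was 0.75 with PBS and 0.32 with GA for *Tnf*, 0.55 and 0.19 for *Nfkbia*, and 0.45 and 0.19 for *Nfkbiz*. The median over all genes tested was also larger with PBS, 0.24 against 0.17. In 4 of the 10 genes the GA value was the larger: *Nfkb2* (0.097 and 0.17), *Relb* (0.20 and 0.30), *Rel* (0.16 and 0.19) and *Nfkbie* (0.156 and 0.163). These differences in spread were not tested.

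**Figure D4:**
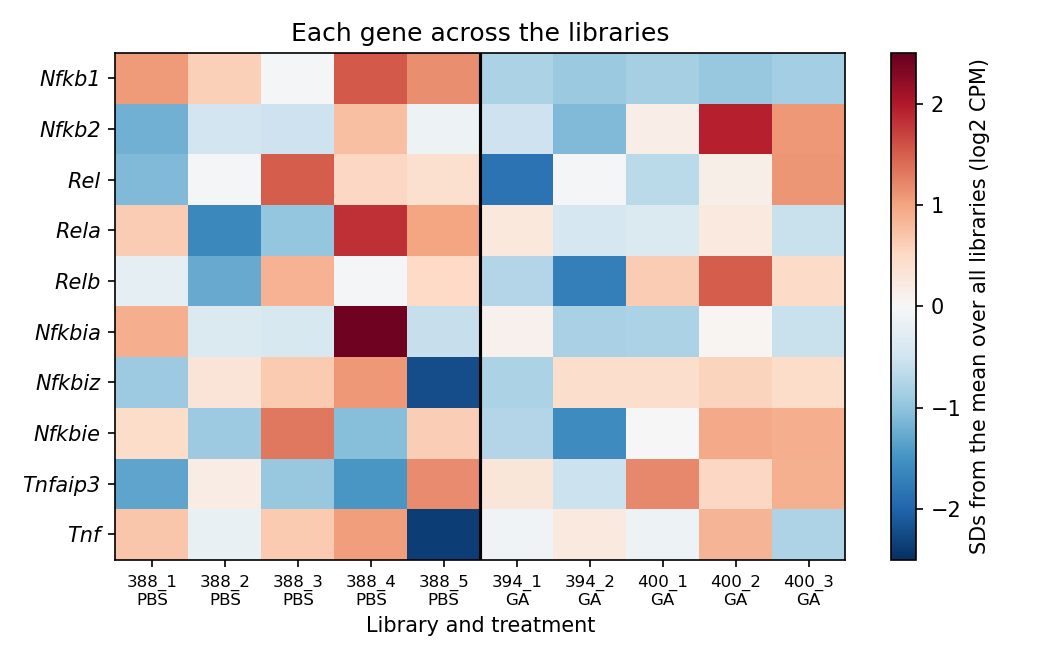
Each gene's log2 CPM in each library, as standard deviations from its mean over the 10 libraries, with PBS on the left of the black line and GA on the right. PBS library 388_4 is high for *Nfkbia* and *Rela*, 388_5 is low for *Tnf* and *Nfkbiz*, and *Nfkb1* is below its mean in all GA libraries.

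Within GA, the libraries of prefix 394 (n = 2) and prefix 400 (n = 3) were set against each other. *Relb* averaged 32.3 CPM in the libraries of prefix 394 and 45.8 CPM in those of prefix 400, a log2 fold change of 0.51 of 400 against 394 (standard error 0.15). Its unadjusted *P* was 0.00585 and its adjusted *P* 0.540 in edgeR. For *Nfkb2* the means were 41.3 and 49.5 CPM (log2 fold change 0.26, unadjusted *P* = 0.0417, adjusted *P* = 0.890 in edgeR). Those of *Nfkbie* were 47.9 and 57.7 CPM (log2 fold change 0.27, unadjusted *P* = 0.0511, adjusted *P* = 0.914 in edgeR). An unadjusted *P* under 0.05 was thus found for 2 of the 10 genes, against 5.48% of all genes tested. Both were higher with prefix 400 (background 2.27%), and 0 were lower (background 3.2%). No gene of the family passed an adjusted *P* of 0.05, for which the background was 0.0138%. *Nfkb1* averaged 158 CPM under either prefix.

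Pairs of these genes were compared over the 10 libraries by Pearson's r and Spearman's rho of log2 CPM with permutation p-values, for all 45 pairs. The r was positive for 25 pairs and negative for 20. Of the 45 pairs, 0 passed an adjusted *P* of 0.05 and 7 had an unadjusted *P* under 0.05. The share for pairs of other genes was not computed, so this count cannot be read as particular to the family. The closest pair was *Relb* and *Nfkbie*, with r = 0.85 (permutation *P* = 0.00231, adjusted *P* = 0.104) and rho = 0.82 (permutation *P* = 0.00569). It had r = 0.85 for deviations from the group means, 0.70 without the 2 libraries farthest from the median of *Relb*, and at least 0.77 without any 1 library. *Nfkb2* and *Relb*, whose products form a dimer, had r = 0.69 (permutation *P* = 0.0287, adjusted *P* = 0.207) and rho = 0.54 (permutation *P* = 0.116). Without 400_2 and 400_3, the farthest from the median of *Nfkb2*, r was 0.47. The higher values of both genes in GA were those of prefix 400, and each treatment holds too few libraries for a value of r within it. In the opposite direction, *Tnfaip3* and *Tnf* had r = -0.71 (permutation *P* = 0.0117, adjusted *P* = 0.207) and rho = -0.71 (permutation *P* = 0.0260). That pair gave r = -0.83 for deviations from the group means and -0.62 without the 2 libraries farthest from the median of *Tnfaip3*. *Rela* and *Nfkbia* had r = 0.71, which dropped to 0.41 without 388_4, and *Nfkbiz* and *Tnf* had r = 0.70, which dropped to 0.17 without 388_5. *Nfkbia* and *Tnfaip3*, both known as feedback inhibitors, had r = -0.67, and -0.09 without the 2 libraries farthest from the median of *Nfkbia*, so that this relation rests on 388_4 and 388_1.

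**Figure D5:**
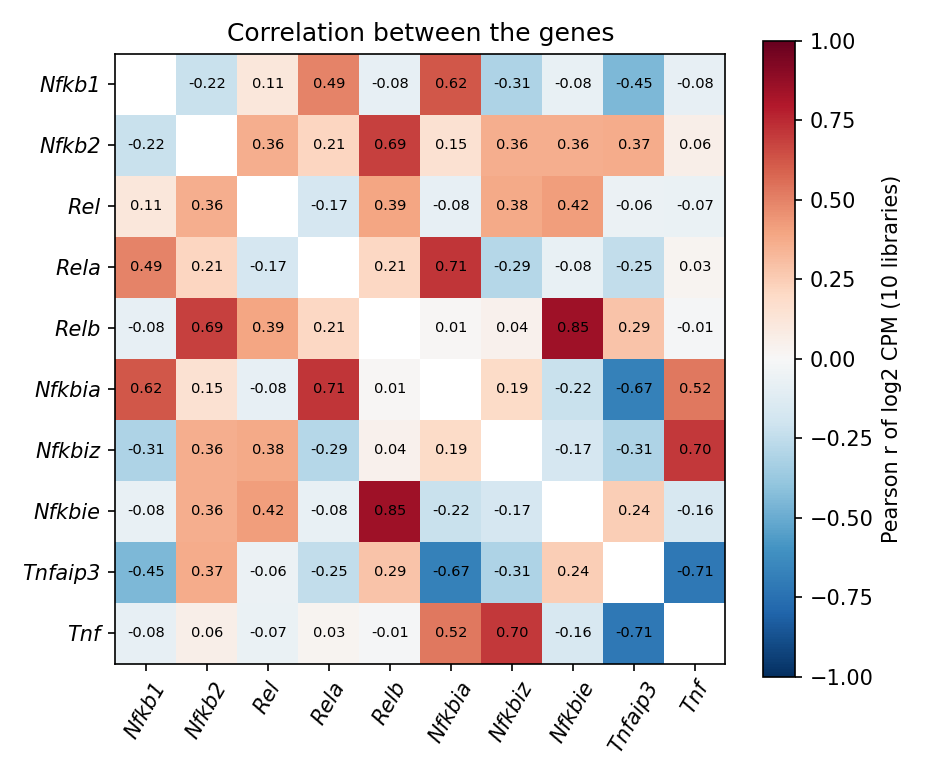
Pearson's r of log2 CPM over the 10 libraries for each pair of genes, in colour and as printed values. *Relb* and *Nfkbie* give the highest value, 0.85, and *Tnfaip3* and *Tnf* the lowest, -0.71.

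Over the 10 libraries, the genes whose log2 CPM followed *Nfkbia* most closely were *Sgk1*, a protein kinase (r = 0.95), *Oard1* (r = 0.95) and *Blnk*, an adaptor of immune receptor signalling (r = 0.94). *Sgk1* read 1330, 1117, 1042, 1813 and 1026 CPM in PBS libraries 388_1 to 388_5, with 388_4 and 388_1 on top as for *Nfkbia*. For *Tnf* they were *Mks1* (r = 0.96), *Mrpl11* (r = 0.96) and *Tead2* (r = 0.95), each lowest in 388_5 as *Tnf* was. *Tead2* was low, between 0.737 and 1.94 CPM. All these genes were picked for the highest r among the genes tested, so a match in single libraries follows from the choice. They are given as a description.

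Other genes of the pathway were taken from 9 lists of 104 genes, of which 98 were tested. In edgeR, 61 were higher and 37 lower in GA by fitted value, 2 higher genes and 1 lower gene had an unadjusted *P* under 0.05 (background 2.58% and 3.17% of all genes), and 0 passed an adjusted *P* of 0.05. All 6 genes of the IKK complexes were higher by fitted value, with a median of 0.014, but 1 was higher and 5 were lower without 388_4 and 388_5. *Ikbkb*, *Chuk* and *Ikbkg*, which encode the subunits of IKK, had log2 fold changes of 0.0052, 0.012 and 0.012, and *Tnfrsf1a* and *Tnfrsf1b*, which encode the TNF receptors, had 0.015 and 0.022. *Ikbkb* averaged 191 ± 32.9 CPM with PBS and 191 ± 17.5 CPM with GA (SD, n = 5 each). In the other IkappaB genes, *Nfkbib* had a log2 fold change of -0.10, *Nfkbid* of 0.13 and *Bcl3* of 0.26, with adjusted *P* of at least 0.930 in edgeR.

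The 22 adaptors and ubiquitin ligases divided into 12 higher and 10 lower, with a median of 0.026. The largest fitted differences there belonged to the TAK1-binding proteins *Tab3*, with 0.37 (10.6 ± 3.33 and 13.7 ± 1.65 CPM), and *Tab2*, with -0.27 (47.2 ± 11.2 and 39.3 ± 6.31 CPM; SD, n = 5 each). Their unadjusted *P* was 0.0681 and 0.0983 in edgeR. Of the 10 deubiquitinases and brakes, 8 were higher by fitted value with a median of 0.061, and 0 had an unadjusted *P* under 0.05. Of the 8 tested genes for decay of *Tnf* mRNA and shedding of TNF, 2 were higher and 6 lower by fitted value, with a median of -0.014. Among them, *Zfp36*, which destabilises *Tnf* mRNA, averaged 203 ± 43.7 and 203 ± 56.9 CPM, and *Adam17*, which sheds TNF from the membrane, 451 ± 31.6 and 449 ± 17.6 CPM (SD, n = 5 each).

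Target cytokines and chemokines held both of the higher genes with an unadjusted *P* under 0.05, *Csf1*, the ligand of the CSF1 receptor, and *Il12b*, which encodes the p40 subunit shared by IL-12 and IL-23. Their log2 fold changes were 0.47 and 2.47, with an adjusted *P* of 0.847 each in edgeR. *Il12b* read 0.576, 0.598, 1.53, 0 and 1.33 CPM in PBS libraries 388_1 to 388_5 and 1.02, 2.13, 1.21, 10.1 and 7.90 CPM in the GA libraries. Its groups overlapped, the 2 high values were those of 400_2 and 400_3, and the 0 reads of 388_4 allow for up to 3. Of the 13 tested genes of this list 12 were higher by fitted value, with a median of 0.26, where 49.9% of all genes tested were lower. The list summed to 394 CPM in PBS library 388_1, 572 to 705 CPM in the other PBS libraries and 629 to 788 CPM with GA. Without 388_1, 9 of the 13 were higher, with a median of 0.16, and without GA library 400_2 also 9, with a median of 0.20. With GA prefix 394 only, 8 of 14 were higher, with a median of 0.076. *Ccl3* and *Ccl4*, chemokines of activated microglia, averaged 74.1 ± 23.4 and 86.8 ± 31.8 CPM with PBS and 95.4 ± 11.8 and 103 ± 12.3 CPM with GA (SD, n = 5 each). Their PBS means include 388_1, at 34.6 and 38.0 CPM. *Il1b* had a log2 fold change of 0.15 and *Il1a* of 0.0066. *Il6*, the 1 gene of the list with a negative value, had -0.21.

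The 19 tested genes of the other targets divided into 12 higher and 7 lower, with a median of 0.052 and 0 at an unadjusted *P* under 0.05. The adhesion molecule *Icam1* averaged 268 ± 30.2 and 273 ± 23.4 CPM and *Cd83* 394 ± 80.4 and 420 ± 57.2 CPM (SD, n = 5 each). Of the 15 tested immediate early and dissociation genes, 10 were lower by fitted value, and 6 of 16 without 388_4 and 388_5. The other 5 were higher, *Btg2* and *Egr1* among them. With GA prefix 394 only, 12 of 16 were higher, with a median of 0.14. With prefix 400 only, 13 of 16 were lower, with a median of -0.40. In the fit of all libraries, *Klf2* was the lower gene of this list with an unadjusted *P* under 0.05 (log2 fold change -0.59, adjusted *P* = 0.854 in edgeR). It was at 16.6 CPM in 388_4 and between 5.48 and 8.31 CPM in every other library. *Fos* had -0.35 and *Dusp1* -0.74, with PBS means that include the high values of 388_4.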

How the data were processed

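RNA of sorted hippocampal microglia was amplified with the SMARTer kit and sequenced in 10 libraries, 5 per treatment, grouped by the treatment label. The authors deposited raw counts of reads per gene, without normalization, for 55453 gene symbols; 0 columns of the table lacked a sample. The submitters' processing notes list fastp 0.20.0, STAR 2.7.0f, featureCounts of Subread 1.6.4 and the build GRCm38.p6. The annotation and strand setting are not given in the sources used here. Reads of overlapping genes may be shared.

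Genes were filtered with filterByExpr (minimum count 10), normalized by TMM and given as CPM. The treatments were tested against each other in edgeR 4.0.16 (quasi-likelihood F-test, no covariate) with Benjamini-Hochberg adjustment over 14481 genes, in R 4.3.3. Single genes also had an exact permutation test, two-sided, with 252 arrangements of log2(CPM + 0.1), and pairs of genes by 100000 permutations. The title prefixes of GA were compared in an edgeR fit of 3 groups. Alternatives were DESeq2 1.42.0 and its size factors, limma 3.58.1 (voom), robust fits, other filters, pseudocounts of 0.5 and 0.01 CPM, CPM without TMM, each library or prefix left out, libraries 388_4 and 388_5 left out together (added after seeing the data), and the title number as a block. Tools were tested on simulated data. Gene positions and exon lengths came from GENCODE M21, which holds 54586 of the symbols, and promoters from RefSeq on GRCm38.p6. Totals of 32332185 to 38764643 counts set the precision, and amplified reads without molecular identifiers make counting error a lower limit.

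The genes and lists were chosen with earlier results of these data known. The named genes are the 10 of the family, from each other list the 2 with the smallest p-value in each direction and the 2 with the highest level, 15 further genes (such as *Zfp36* and *Il1b*), the 3 genes with the highest r with *Nfkbia* and with *Tnf*, and *P2ry12*, *Tmem119* and *Cx3cr1* as the check of the cell type. The text gives values for part of the list genes this rule names.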

Additional observations from a re-analysis of the deposited data

Results flagged for a closer look

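*Nfkbiz* in GA library 394_1, at 19.3 CPM, stood apart from the other GA libraries: its gap to the nearest of them was 0.903 of the range of the group, above the limit of 0.71 for 5 samples. Of 20 groups of values looked at (10 genes in each treatment), 1 was set apart in this way, and chance does so for about 1 in 20.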

How the results depend on the processing

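The count of 0 family genes past an adjusted *P* of 0.05 was found in all 20 alternative fits. *Nfkb1* kept a negative value in all 20, with an unadjusted *P* under 0.05 in 19. The number of family genes with an unadjusted *P* under 0.05, 1 in the reported fit, was 2 with no filter on low counts (*Nfkb1* and *Nfkbia*), 0 with GA prefix 394 only, 2 without 388_4 and 388_5 (*Nfkb1* and *Tnfaip3*, a fit chosen after seeing the data), and 1 to 3 without 1 library each (2 without 388_2 or 388_3, 3 without 388_5). Over all genes, DESeq2 called 2 and edgeR 0 to 1 without 1 library (1 without 394_1). The exact permutation test had 1 to 2 family genes under 0.05 without 1 library, and 0 to 1 of 45 pairs passed when 1 library was left out (1 without 388_4 or 400_2). The median log2 fold change of the family ran from -0.081 to 0.016 without 1 library each, and was -0.107 with prefix 394 only and 0.037 with prefix 400 only.

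Small differences changed sign. With GA prefix 394 only, *Nfkb2* was at -0.064, *Relb* at -0.29 and *Nfkbiz* at -0.018; with prefix 400 only *Nfkbie* was at 0.081. *Tnf* was at 0.037 in limma-voom, and *Rela* at 0.063 without 388_4 and 388_5. Without 1 library each, log2 fold changes ran from -0.12 to 0.0035 for *Rela*, -0.060 to 0.13 for *Relb*, -0.027 to 0.22 for *Nfkbiz*, -0.066 to 0.028 for *Nfkbie* and -0.28 to 0.071 for *Tnf*. The differences of log2 CPM in the permutation test ran from -0.11 to 0.010, -0.072 to 0.12, -0.022 to 0.25, -0.069 to 0.030 and -0.29 to 0.17 for these genes, and from 0.094 to 0.18 for *Tnfaip3*. The cause was not tested.

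The numbers in the titles did not pair the libraries: deviations of libraries with the same number had correlations of -0.109 to 0.0438 over genes, and 1 of the 5 GA libraries matched its own number best. With this number as a replicate block, *Rela* was at 0.057 and 1 family gene had an unadjusted *P* under 0.05.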
